A study of Mus musculus with 15 samples.

Results

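The step from postnatal day 4 (P4) to postnatal day 8 (P8) was examined in mouse cerebellar Purkinje cells (PCs), by comparing the 3 samples labelled P8 with the 3 labelled P4. These are 6 of the 15 samples of a series that also holds 3 samples each from P0, P14 and P21. All 6 samples carry the same strain label, written C56/BL6, with no substrain. The study's methods write the strain as C57/BL6 and describe male mice. The labels name no altered gene and no agent for any of them. For each of these 6 libraries 1000 single PC soma were cut out of cerebellar sections by laser capture and pooled. RNA was amplified for sequencing, and reads were counted per gene. The study's methods describe the P0 cells as captured in clusters instead. The replicates are described as biological. In such pools fewer cells of a type and less RNA per cell cannot be told apart. The deposited tables list 38561 genes, of which 14293 had enough counts to be tested.

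PCs are the only output neurons of the cerebellar cortex, and they release GABA. In the first postnatal week they lose their early, short processes and extend a primary dendrite, and the tree then branches towards the parallel fibres of granule cells. In the same days climbing fibres, the axons of the inferior olive, compete on the soma and begin to be eliminated. A later phase of that elimination needs signalling through the metabotropic glutamate receptors, a G protein, phospholipase C and calcium release from stores. The transcription factor RORα is known to be needed for this early dendrite remodelling.

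Total counts on genes were 3805726, 7814951 and 5383478 in the 3 P4 libraries and 4713145, 5112902 and 5345170 in the 3 P8 libraries, so the precision of a low gene differed more among P4 than among P8 libraries. Counts of 2 libraries of a time point differed by 24.6 to 56.5 in chi-square per gene, far above sampling noise, and each library was counted as a separate sample. Outside the comparison, P0 replicate 1 held 1536 counts of *Xist* and 0 of the Y-linked *Ddx3y* and *Eif2s3y*, which goes against the stated sex. That library is in neither group compared, but it shares the scaling, the gene filter and the estimate of spread, and without it 152 genes were called higher and 42 lower at P8, against 123 and 37 with it.

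One library difference runs along the comparison itself. *Dynlt1b*, one of several near-identical genes for a dynein light chain, had 0, 6 and 5 counts at P4 and 328, 333 and 411 at P8. It had 2, 4 and 4 counts in the P0 libraries, 184, 1 and 4 in those of P14, and 65, 79 and 83 in those of P21. *Wdfy1*, a protein of early endosomes, ran the opposite way, with 384, 1264 and 1416 counts at P4, 90, 55 and 103 at P8, and 118, 720 and 627 at P14. For both genes 2 libraries of P14 thus stood with P0 and P4, while the third, P14 replicate 1, stood with P8 and P21. These values are raw counts, and those of *Dynlt1b* are uncertain because reads that aligned to more than one of its copies were not counted.

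Over the 14293 tested genes, 18 put these 8 libraries entirely on one side of the other 7, and 3 of the 18 were called between P4 and P8, *Dynlt1b* and *Wdfy1* among them. For P4 against P8, time point and this library difference cannot be told apart. Among the 123 genes higher at P8, P14 replicate 1 was the highest of the 3 P14 libraries for 57, replicate 2 for 14 and replicate 3 for 52. Among the 37 lower genes, replicate 1 was the lowest of the 3 for 11, replicate 2 for 5 and replicate 3 for 21. These counts cannot separate the library difference from age, and its part in the calls was not tested. With all P14 libraries left out of the fit, 87 genes were called higher and 21 lower.

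**Figure D1:**
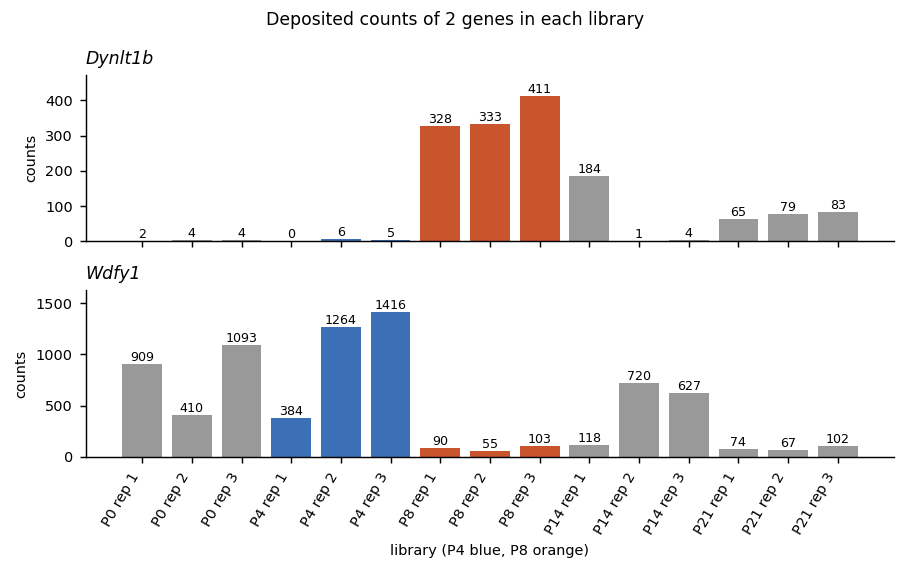
Deposited counts (vertical axes, linear and starting at 0) of *Dynlt1b* and *Wdfy1* in each of the 15 libraries (horizontal axis), with P4 in blue, P8 in orange and the other time points in grey. *Dynlt1b* had at most 6 counts in the P0 and P4 libraries and 328 to 411 in the P8 libraries, while P14 was split, with 184 counts in replicate 1 and 1 and 4 in the other two.

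The captured cells were checked against 6 PC markers. Their summed level, in CPM (the count of a gene scaled to library size by the TMM method), was 11712, 17155 and 10502 at P4 and 17625, 20078 and 19198 at P8, so every P8 library lay above every P4 library. The means were 13123 ± 3544 (SD, n = 3) and 18967 ± 1242 (SD, n = 3), with an exact two-sided permutation p of 0.10, which is the smallest that 3 against 3 samples can give. Of the 6 markers, *Itpr1* and *Ppp1r17* rose. *Calb1*, a calcium buffer that fills PCs, had 2918 ± 760 CPM at P4 and 4043 ± 563 CPM at P8 with overlapping groups, and *Pcp4*, a calmodulin regulator, had 2938 ± 993 and 3240 ± 231 CPM. *Pcp2*, a G-protein modulator found almost solely in PCs, had 2720 ± 1644 and 5242 ± 729 CPM, and its adjusted p of 0.228 missed the threshold. *Car8*, which binds the IP3 receptor, had 3366 ± 363 and 3825 ± 261 CPM with adjusted p = 0.747.

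Markers of other cells were also present and several moved with the groups. The 16 markers of Bergmann glia and astrocytes summed to 5730 to 10645 CPM at P4 and 9493 to 12850 CPM at P8, with an exact permutation p of 0.20, and none of them was at 0 in all 6 libraries. The 14 oligodendrocyte lineage markers summed to 122 to 241 CPM at P4 and 314 to 475 CPM at P8, and the 10 microglia markers to 1.02 to 38.0 and 51.1 to 72.8 CPM. The 5 red blood cell genes summed to 172 to 191 CPM at P4 and 291 to 519 CPM at P8. For these 3 lists the P8 libraries lay above all P4 libraries, at the smallest exact permutation p the design allows, 0.10. Granule cell lineage markers, of which 1 of 15 was at 0 in all 6 libraries, summed to 602 to 1081 CPM at P4 and 843 to 1445 CPM at P8, overlapping with an exact permutation p of 0.40. The 26 cell cycle genes summed to 802 to 1442 CPM at P4 and 463 to 549 CPM at P8. The part of these other cells in the results that follow was not tested.

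Of the 14293 genes tested, 160 differed between P4 and P8 at an adjusted p under 0.05 (edgeR quasi-likelihood test, Benjamini-Hochberg over all genes tested), which is 1.12% of them. Such genes are referred to as called. There were 123 genes higher at P8 (0.861%) and 37 lower (0.259%), and 1692 genes had an unadjusted p under 0.05. These 1692 were 11.8% of the tested genes, the share to set beside unadjusted counts in the lists below. The log2 change was below 0 in 7396 tested genes and above 0 in 6866. In 63 of the higher genes and 8 of the lower genes the fitted change was at least 4-fold. Over all tested genes the median log2 change was -0.03, and the TMM scaling itself draws this median towards 0. In every called gene the 3 P8 libraries lay on one side of the 3 P4 libraries, which held for 17.7% of all tested genes. The counts depended on single libraries. Genes called higher numbered 88, 108 and 93 without P4 replicate 1, 2 and 3, and 89, 79 and 65 without P8 replicate 1, 2 and 3. Genes called lower numbered 21, 19 and 13 without each P4 library in that order, and 14, 14 and 9 without each P8 library. In all 6 of those fits 54 of the 123 higher genes and 4 of the 37 lower genes were called, and no called gene changed sign in any fit. With other tests on the same 15 libraries, DESeq2 called 323 genes higher and 173 lower, and limma-voom called 199 and 111. The fit on the 6 P4 and P8 libraries alone called 70 and 29. Of the called genes, 59 of the 123 higher and 16 of the 37 lower were called by DESeq2, limma-voom, the 6-library fit and the fit of P4 to P21 libraries alike. DESeq2 gave no adjusted p for *Ppp1r17* and *Dynlt1b*. Of the genes named here as called, *Cbln3*, *Klf9*, *Mdfi*, *Prr18* and *Wdfy1* lost the call with limma-voom, at adjusted p of 0.0546 to 0.146. In the 6-library fit it was lost by *Abcg1*, *Alg12*, *Atp1b1*, *Atp2a3*, *Cbln3*, *Dgkz*, *Eno2*, *Espn*, *Fam107a*, *Fgfr3*, *Gabbr2*, *Gm11223*, *Gm12992*, *Hapln4*, *Hmgb2*, *Klf9*, *Mdfi*, *Mgst1*, *Plxna1*, *Rps19*, *Scn4b* and *Slc4a4*, at 0.0572 to 0.241.

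**Figure D2:**
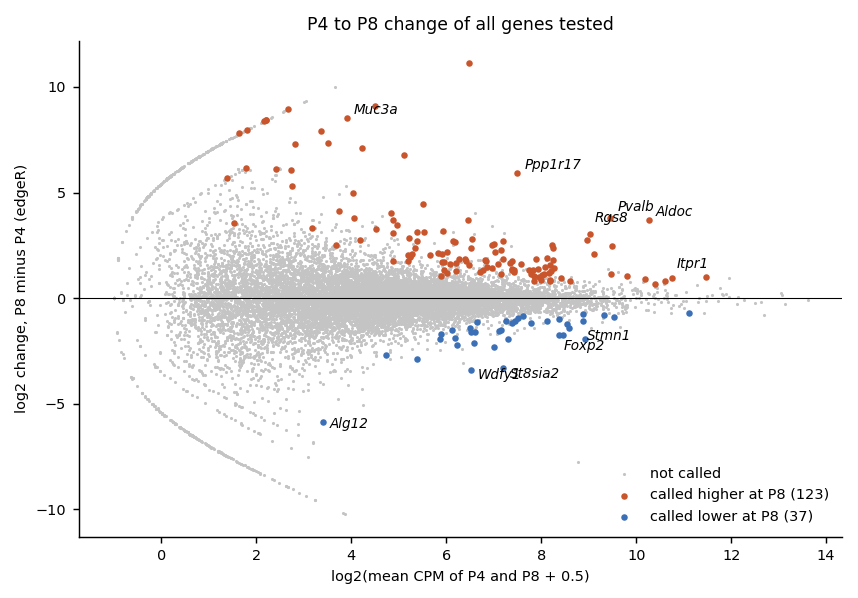
Log2 change from P4 to P8 (vertical axis, edgeR) against the log2 of the mean CPM of P4 and P8 plus 0.5 (horizontal axis) for the 14293 genes tested, each point a gene. Orange points are the 123 genes called higher at P8 and blue points the 37 called lower. Called genes lie at low levels, such as *Muc3a*, and at high ones, such as *Itpr1*, but the genes with the highest levels were not called.

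The 12 protein-coding genes with the largest rises included *Espn*, *Muc3a*, *Rhod*, *Hes3*, *Hrh3*, *Dynlt1b*, *Mdfi*, *Ppp1r17*, *Fgfr3*, *Fam107a* and *Casq2*. Most were at or near 0 at P4, so that their fold depends on very few counts. *Ppp1r17*, a PC-enriched inhibitor of protein phosphatases also known as the G-substrate, had 0.245, 15.3 and 0.516 CPM at P4 and 321, 334 and 413 CPM at P8. P4 replicate 2 thus held most of the P4 signal and still lay far below every P8 library. The rule for naming this gene required no overlap. The log2 change was 5.91 ± 0.76 (SE, n = 3 against 3; adjusted p = 6.1e-04). *Casq2*, a calsequestrin that binds calcium inside the endoplasmic reticulum, had 4.66, 6.77 and 0.172 CPM at P4 and 80.6, 87.9 and 88.7 CPM at P8. Its log2 change was 4.44 ± 0.57 (SE; adjusted p = 6.1e-04), with no overlap between the groups, as the rule for naming it required.

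*Espn*, which bundles actin filaments in stereocilia and in the spines of PC dendrites, had no count in any P4 library and 18.4, 6.96 and 9.81 CPM at P8, or 184 counts in all. With a floor of 3 counts over the P4 group its level was at least 68.3-fold higher at P8. *Muc3a*, annotated as a mucin, had 0, 0.128 and 0 CPM at P4 and 15.8, 31.8 and 39.1 CPM at P8. That is 1 count against 467, a ratio of 520 with a 95% counting interval from 92.9 to 20578. *Hes3*, a bHLH repressor of the Notch-linked family, had 2 counts at P4 and 351 at P8, a ratio of 195 with a counting interval from 53.7 to 1620. These 3 genes stayed called whichever of the 6 libraries was left out, with adjusted p of at most 0.00344, while *Espn* had 0.0692 in the 6-library fit.

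The histamine receptor gene *Hrh3* had 0.735, 0.128 and 0 CPM at P4 and 48.7, 13.6 and 46.4 CPM at P8, with log2 change 7.11 ± 0.87 (SE; adjusted p = 6.7e-04). *Fam107a*, an actin-associated protein, had 3.68, 0 and 0 CPM at P4 and 33.5, 23.5 and 35.5 CPM at P8 (adjusted p = 0.014, or 0.0614 without P4 replicate 3). *Fgfr3*, a fibroblast growth factor receptor found in astrocytes, had 0, 0 and 0.859 CPM at P4 and 13.2, 9.41 and 14.1 CPM at P8 (adjusted p = 0.0201, lost without P4 replicate 1 or P8 replicate 3 at up to 0.0628). The P8 libraries of these genes were all higher, as the rule for naming them required, and *Hrh3* was lowest at P8 in replicate 2. *Rhod*, a small GTPase, had 1 count at P4 and 322 at P8, a ratio of 358 with a counting interval from 63.9 to 14202, and *Mdfi*, an inhibitor of myogenic bHLH factors, had 3 and 194, a ratio of 72.0 with an interval from 24.3 to 352. The call of *Mdfi* was lost without any one of the 6 libraries, and that of *Rhod* without any but P8 replicate 1, at adjusted p of up to 0.104 and 0.099. The call of *Dynlt1b* was also lost without any one of the 6 (adjusted p up to 0.0991).

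**Figure D3:**
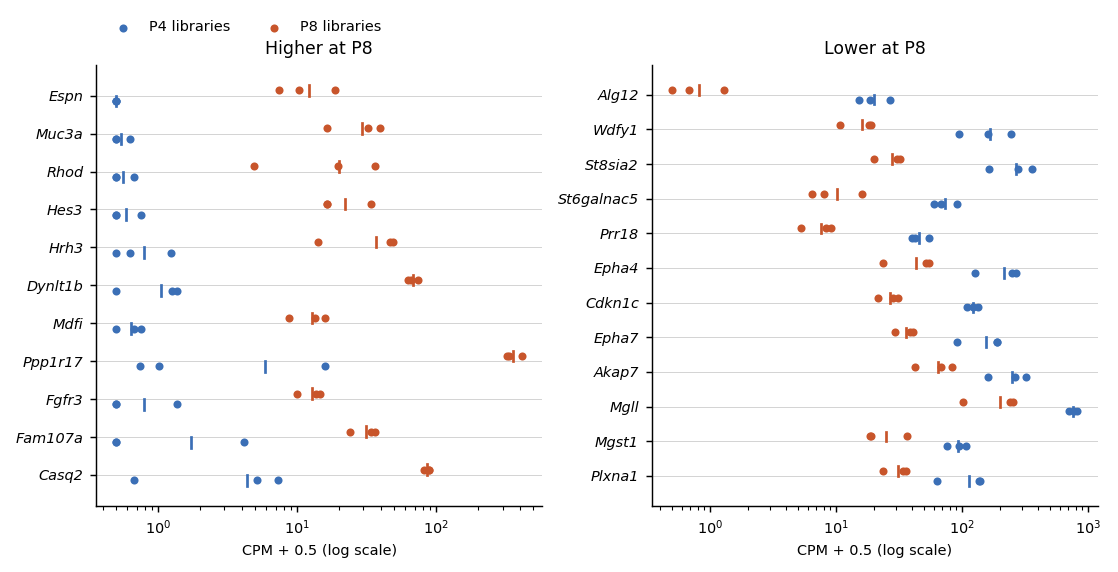
CPM plus 0.5 (horizontal axes, log scale) of 11 of the protein-coding genes with the largest rise (left) and the 12 with the largest fall (right) from P4 to P8, each point a library and each short vertical line a mean of 3, P4 in blue and P8 in orange. In every gene shown the 3 P8 points lie on one side of the 3 P4 points, as the rule for choosing these genes required.

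The 12 protein-coding genes with the largest falls were *Alg12*, *Wdfy1*, *St8sia2*, *St6galnac5*, *Prr18*, *Epha4*, *Cdkn1c*, *Epha7*, *Akap7*, *Mgll*, *Mgst1* and *Plxna1*. *St8sia2*, which adds polysialic acid to the adhesion molecule NCAM in immature neurons, had 163, 359 and 277 CPM at P4 and 30.3, 19.8 and 31.6 CPM at P8. *St6galnac5*, another sialyltransferase, had 90.7, 59.4 and 68.2 CPM at P4 and 7.58, 6.02 and 15.7 CPM at P8. The fitted log2 changes were -3.29 ± 0.70 and -2.89 ± 0.63 (SE), with adjusted p of 0.0293 and 0.0319. *Cdkn1c*, a cyclin-dependent kinase inhibitor expressed from the maternal allele, had 110, 122 and 133 CPM at P4 and 27.7, 30.7 and 21.2 CPM at P8, with log2 change -2.20 ± 0.33 (SE; adjusted p = 0.002). All P4 libraries of these genes were higher than all P8 libraries, as the rule for naming them required. *Mgll*, the lipase that breaks down the endocannabinoid 2-AG, had 826, 773 and 701 CPM at P4 and 242, 253 and 102 CPM at P8, with P8 replicate 3 the lowest (adjusted p = 0.0296).

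*Alg12*, an enzyme of N-glycan assembly, had 14.7, 26.3 and 18.2 CPM at P4 and 0.798, 0 and 0.178 CPM at P8. Yet it was near 0 at P0 (0.136 ± 0.118 CPM, SD, n = 3), at 6.57 ± 5.57 CPM at P14 and at 21.8 ± 15.4 CPM at P21. *Wdfy1* had 94.1, 161 and 243 CPM at P4 and 18.0, 10.4 and 18.4 CPM at P8. *Prr18*, a gene of unknown role in PCs, *Akap7*, an anchor of protein kinase A, and *Mgst1*, a glutathione transferase of membranes, had log2 changes of -2.67, -1.95 and -1.92. Of the 12, only *Cdkn1c* stayed called in all 6 fits that left out 1 library. *Epha4* and *Wdfy1* lost the call only without P8 replicate 2 (adjusted p = 0.0575 and 0.0552), and *Mgll*, *Prr18* and *St6galnac5* lost it in each of the 6 fits, at adjusted p of up to 0.141, 0.158 and 0.152. *St8sia2* and *Akap7* lost it without any library but P4 replicate 1 (up to 0.14 and 0.164), *Alg12* without replicate 2 or 3 of either time point (up to 0.151) and *Mgst1* without P4 replicate 1 or 2 or P8 replicate 2 or 3 (up to 0.117).

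Of 12 tested genes of metabotropic glutamate signalling, 5 were called higher and none lower, and their median log2 change was 1.13 beside -0.03 over all tested genes. Over all tested genes 0.861% were called higher and 0.259% lower, and calls in this and the later lists are to be read beside those shares. List members were chosen with earlier results of these data known. *Rgs8*, a PC-enriched regulator that speeds up G-protein shut-off, had 88.0, 153 and 101 CPM at P4 and 825, 857 and 1100 CPM at P8. Its log2 change was 3.02 ± 0.33 (SE; adjusted p = 1.7e-04). The groups lay apart by more than the spread of either. *Itpr1*, the IP3 receptor that releases calcium from stores, had 1107, 1249 and 1173 CPM at P4 and 2205, 2270 and 2310 CPM at P8, a change of 0.94 ± 0.15 (SE; adjusted p = 0.0028) with little spread within either group.

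*Inpp5a*, the phosphatase that removes IP3, had 166, 107 and 168 CPM at P4 and 370, 503 and 426 CPM at P8 (adjusted p = 0.0068). *Dgkz*, a kinase that removes diacylglycerol, had 77.0 ± 45.2 CPM at P4 and 248 ± 21.7 CPM at P8 (SD, n = 3; adjusted p = 0.0088), and was the fifth called member. *Dgkz*, and among uncalled genes *Cacna1a*, *Dab1*, *Vldlr*, *Slc12a5*, *Gap43*, *Nefh* and *Map2*, lie outside the rule for names and were chosen after their values were seen. The G protein *Gnaq* had 633 ± 143 and 996 ± 132 CPM (adjusted p = 0.12). *Plcb4*, the phospholipase of this pathway in many PCs, had 674 ± 76.0 and 547 ± 58.2 CPM (adjusted p = 0.68). *Rgs8*, *Itpr1*, *Inpp5a* and *Dgkz* stayed called whichever library was left out, with adjusted p of at most 0.0409, and *Dgkz* lost the call in the 6-library fit (0.0803).

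Of 29 tested genes of calcium channels, pumps and stores, 4 were called higher and none lower, with a median log2 change of 0.62. *Pvalb*, the calcium buffer parvalbumin, had 159, 91.7 and 35.7 CPM at P4 and 1202, 1394 and 1336 CPM at P8, with log2 change 3.78 ± 0.44 (SE; adjusted p = 2.3e-04). *Atp2a3*, a pump that loads calcium into the endoplasmic reticulum, had 29.4, 0.638 and 8.77 CPM at P4 and 161, 177 and 145 CPM at P8 (adjusted p = 0.0101, or 0.0626 without P4 replicate 3). *Cacna1g*, a T-type calcium channel, had 54.4, 92.2 and 52.2 CPM at P4 and 199, 194 and 223 CPM at P8 (adjusted p = 0.0014). *Pvalb* and *Atp2a3* differed widely among the P4 libraries, and all P8 libraries were above them. *Atp2b2*, the calcium pump of the plasma membrane, rose from 1127 ± 122 to 1969 ± 101 CPM (SD, n = 3; adjusted p = 0.0373), and its call was lost without any one of the 6 libraries, at up to 0.141. *Cacna1a*, the P/Q-type channel of PCs, had 37.6 ± 7.68 and 90.2 ± 21.2 CPM without overlap, as in 17.7% of all tested genes (adjusted p = 0.108).

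At the synapse, 1 of 30 tested glutamate receptor and scaffold genes was called higher and none lower, with a median log2 change of 0.31. The AMPA receptor subunit *Gria2* had 662 ± 106 and 598 ± 8.20 CPM (adjusted p = 0.847), with overlap between the groups. None of 14 tested genes linked to climbing fibre elimination was called by edgeR, 5 had an unadjusted p under 0.05 with higher values at P8 and 1 with lower, and the median log2 change was 0.58. DESeq2 called 2 of them higher and 1 lower, and limma-voom 2 higher. A member of the list, *Igf1*, a growth factor, had 591, 1388 and 587 CPM at P4 and 478, 344 and 357 CPM at P8 (adjusted p = 0.153).

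Among 28 tested genes of dendrite growth and branching, 3 were called higher and none lower, and the median log2 change was 0.20. *Mtss1*, which bends membranes and shapes PC dendrites and spines, had 125, 106 and 118 CPM at P4 and 393, 449 and 469 CPM at P8. Its log2 change was 1.91 ± 0.22 (SE; adjusted p = 2.6e-04). *Rora*, which encodes RORα, had 805, 750 and 861 CPM at P4 and 1550, 1509 and 1510 CPM at P8, with log2 change 0.92 ± 0.13 (SE; adjusted p = 0.0013). Both groups were tight and well separated, and both calls held without any one library. *Klf9*, a thyroid hormone responsive factor known to limit axon regrowth of PCs, had 31.4, 44.8 and 28.4 CPM at P4 and 81.4, 69.3 and 111 CPM at P8 (adjusted p = 0.0323). Its call was lost without P4 replicates 1 or 3 or P8 replicates 1 or 3, at up to 0.181.

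Some members of that list had lower values at P8 and did not pass the test. *Dab1*, the adaptor of reelin signalling, had 264 ± 72.2 and 162 ± 34.9 CPM (adjusted p = 0.176), and the receptor *Vldlr* had 388 ± 26.6 and 248 ± 8.54 CPM (adjusted p = 0.0802). The guidance receptor *Robo2* had 189 ± 24.2 and 88.1 ± 17.9 CPM (adjusted p = 0.126). In each of these genes the groups did not overlap, as in 17.7% of all tested genes.

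Of 17 tested transcription factors of the PC lineage, *Rora* and *Klf9* rose and *Foxp2* fell, and the median log2 change was 0.20. *Foxp2*, which marks young PCs, had 389, 576 and 555 CPM at P4 and 143, 154 and 162 CPM at P8. The log2 change was -1.73 ± 0.23 (SE; adjusted p = 6.7e-04), and it stayed called in all 6 fits that left out 1 library. *Ebf1* had 637 ± 185 and 429 ± 41.5 CPM (adjusted p = 0.21), and *Lhx1* had 215 ± 75.2 and 247 ± 16.2 CPM (adjusted p = 0.851). Of these, *Lhx1* overlapped between the groups. None of 20 tested factors of immature neurons was called by edgeR (2 higher and 1 lower at an unadjusted p under 0.05, and 1 called higher by DESeq2 and 1 by limma-voom), with a median log2 change of 0.03.

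The half-site AGGTCA, which RORα shares with other nuclear receptors, was searched on both strands in the promoter windows of called genes, since *Rora* itself rose. The bases that flank the half-site were not part of the search. RefSeq windows of 300 bases, from 250 before to 50 after a start site (GRCm38.p6), were matched by symbol to 91 of the 123 higher genes and 22 of the 37 lower genes. The letters were found in at least one window of 11 of the 91 higher genes (12.1%) and of 3 of the 22 lower genes (13.6%). This stands beside 1507 of 10498 tested genes with a window (14.4%) and 4900 of all 27025 genes with a window (18.1%). A window of *Rgs8*, chr1:153665423-153665722 on the plus strand, and one of *Syt1*, a gene that fell, chr10:109009062-109009361 on the minus strand, are shown because they hold the same letters in genes that moved in opposite directions. Capitals mark the match, which begins 136 bases before the start site in *Rgs8* and 156 before it in *Syt1*.
Rgs8: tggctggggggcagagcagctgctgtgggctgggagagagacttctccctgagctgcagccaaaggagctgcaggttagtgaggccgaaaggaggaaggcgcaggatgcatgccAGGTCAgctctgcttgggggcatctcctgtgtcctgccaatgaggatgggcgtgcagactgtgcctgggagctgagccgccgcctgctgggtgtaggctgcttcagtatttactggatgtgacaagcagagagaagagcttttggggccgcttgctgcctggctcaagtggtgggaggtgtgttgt
Syt1: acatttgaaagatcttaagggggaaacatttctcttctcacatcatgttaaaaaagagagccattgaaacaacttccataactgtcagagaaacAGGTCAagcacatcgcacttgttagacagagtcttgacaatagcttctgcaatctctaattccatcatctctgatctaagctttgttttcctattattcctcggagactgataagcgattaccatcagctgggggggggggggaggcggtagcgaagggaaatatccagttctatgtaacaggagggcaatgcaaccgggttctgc
The share of genes with the letters was no higher among called genes than among all tested genes. Letters this short occur in many windows, so the share cannot decide whether RORα acts on called genes, which was not tested. A match is not a measured binding site.

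Of 13 tested GABA receptor subunits, 3 were called higher, *Gabbr2* and *Gabbr1* among them, and none lower, and the median log2 change of the list was 0.06. The metabotropic receptor genes *Gabbr2* and *Gabbr1* went from 166 ± 18.1 to 329 ± 51.8 CPM and from 233 to 447 CPM in the mean, with adjusted p of 0.0104 and 0.0289. The call of *Gabbr2* was lost without replicate 1 or 3 of either time point, at up to 0.0588, and that of *Gabbr1* without any one library, at up to 0.127. *Slc12a5*, the chloride exporter KCC2 that makes GABA inhibitory, had 65.0, 98.2 and 52.4 CPM at P4 and 161, 192 and 195 CPM at P8 (adjusted p = 0.0724). Its groups did not overlap, as in 17.7% of all tested genes.

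Of 36 tested sodium, potassium and HCN channel genes, 4 were called higher and none lower, with a median log2 change of 0.51. *Scn4b*, the β4 sodium channel subunit linked to resurgent current and fast firing, had no count at P4 and 9.38, 7.53 and 7.67 CPM at P8. Its 130 counts made it at least 48.2-fold higher, and it stayed called without any one library, though not in the 6-library fit (adjusted p = 0.0873). *Scn2b*, another β subunit, had 146, 120 and 95.6 CPM at P4 and 256, 307 and 362 CPM at P8 (adjusted p = 0.0013). *Kcna1*, a potassium channel of axons, had 102 ± 15.5 and 373 ± 66.9 CPM (adjusted p = 0.0106). The call of *Kcna1* was lost without P4 replicate 3 or P8 replicate 3, at up to 0.0622, and those of *Scn4b* and *Scn2b* held. Of 8 tested genes of the sodium pump, with a median log2 change of 0.26, 1 was called. *Atp1b1*, its β1 subunit, rose from 584 ± 190 to 1218 ± 35.9 CPM (adjusted p = 0.0088), and without P4 replicate 1 its adjusted p was 0.0507.

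Of 25 tested genes of axon growth and the immature cytoskeleton, 3 were called lower and none higher, 21 had a log2 change below 0, and the median was -0.68 beside -0.03 over all genes. *Stmn1*, which takes microtubules apart, had 547, 563 and 791 CPM at P4 and 313, 321 and 269 CPM at P8 (log2 change -1.07 ± 0.21, SE; adjusted p = 0.018). *Tmsb10*, a thymosin that binds actin monomers, had 350, 427 and 357 CPM at P4 and 178, 199 and 154 CPM at P8 (adjusted p = 0.0046). *Dpysl4*, a collapsin response mediator, had 222, 157 and 249 CPM at P4 and 68.3, 95.05 and 58.9 CPM at P8 (adjusted p = 0.0431). The groups did not overlap in any of them. Only the call of *Tmsb10* held without any one library, that of *Stmn1* being lost without P4 replicate 3 or any P8 library (adjusted p up to 0.106) and that of *Dpysl4* without any library but P4 replicate 2 (up to 0.205).

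Other members of that list had lower values at P8 without passing the test. *Tuba1a*, the main α-tubulin of young neurons, had 8422 ± 1733 and 4886 ± 482 CPM (adjusted p = 0.133), *Map1b* had 3403 ± 329 and 2119 ± 223 CPM (adjusted p = 0.153), and *Gap43* had 452 ± 148 and 233 ± 33.3 CPM (adjusted p = 0.349). In all 3 genes the P4 libraries were above all P8 libraries, and 17.7% of all tested genes likewise had no overlap. Among 25 tested genes of the mature cytoskeleton, with a median log2 change of 0.06, *Tuba4a*, a tubulin of adult neurons, was called higher, from 164 ± 10.8 to 370 ± 28.7 CPM (adjusted p = 0.0188), and its call was lost without any library but P8 replicate 1, at up to 0.0814. The heavy neurofilament gene *Nefh* had 30.6, 30.8 and 3.09 CPM at P4 and 188, 229 and 263 CPM at P8, with a wide P4 group and adjusted p = 0.13. *Map2*, which stabilises dendritic microtubules, had means of 466 and 286 CPM (adjusted p = 0.085).

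Of 35 tested axon guidance genes, 3 were called lower and none higher, while the list as a whole was centred near 0 with a median log2 change of 0.09. *Epha4*, an ephrin receptor tyrosine kinase, had 251, 126 and 268 CPM at P4 and 51.1, 23.0 and 54.8 CPM at P8 (log2 change -2.32 ± 0.42, SE; adjusted p = 0.0109). *Epha7*, of the same family, had 189, 91.5 and 188 CPM at P4 and 38.1, 40.1 and 28.9 CPM at P8 (adjusted p = 0.017). *Plxna1*, a semaphorin receptor, had 63.5, 139 and 137 CPM at P4 and 35.7, 33.3 and 23.2 CPM at P8 (adjusted p = 0.0278). P4 replicate 1 or 2 was the lowest P4 library in these genes. That library still lay above every P8 library, as the rule for naming these genes required. The call of *Epha4* was lost without P8 replicate 2, that of *Epha7* without any library but P4 replicate 2 (adjusted p up to 0.0999) and that of *Plxna1* without any but P4 replicate 1 (up to 0.149).

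Of 30 tested genes of synaptic vesicle release, *Syt1* was called lower and none higher, although the median log2 change of the list was 0.38 and 22 members had a value above 0. *Syt1*, the calcium sensor of fast release, had 419, 531 and 664 CPM at P4 and 209, 135 and 141 CPM at P8, with log2 change -1.74 ± 0.37 (SE; adjusted p = 0.0293), lost without any library but P4 replicate 1 at up to 0.148. *Snap25*, a SNARE protein of release, had 909 ± 128 and 1162 ± 88.1 CPM (adjusted p = 0.372).

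In metabolism, 2 of 16 tested glycolysis genes were called higher and none lower, with a median log2 change of 0.22. *Aldoc*, the aldolase C or zebrin II that marks bands of PCs in the adult cerebellum and is also made by astrocytes, had 198, 201 and 126 CPM at P4 and 1646, 3108 and 2080 CPM at P8. Its log2 change was 3.70 ± 0.37 (SE; adjusted p = 8.2e-05), and P8 replicate 2 was the highest. *Eno2*, the neuronal enolase, had 138, 181 and 83.2 CPM at P4 and 282, 371 and 405 CPM at P8 (adjusted p = 0.018), and lost its call without P4 replicate 1 or 3 or P8 replicate 2 or 3, at up to 0.0809. Per exon length, *Pvalb* (1321 ± 85.0 RPKM, SD, n = 3) and *Aldoc* (731 ± 233 RPKM) stood at higher levels at P8 than *Ppp1r17* (213 ± 29.5 RPKM) or *Itpr1* (130 ± 2.26 RPKM). None of 73 tested nuclear-encoded respiratory chain genes was called by edgeR, DESeq2 or limma-voom (4 higher and 1 lower at an unadjusted p under 0.05), with a median log2 change of 0.08. None of 11 mitochondrially encoded genes was called by these tools or at an unadjusted p under 0.05, with a median of -0.15.

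Of 75 tested cytosolic ribosomal protein genes, 1 was called lower and none higher, 69 had a log2 change below 0, 24 had an unadjusted p under 0.05 with lower values at P8, and the median was -0.40. Over all 14293 tested genes, 7396 had a log2 change below 0 and 11.8% had an unadjusted p under 0.05 in either direction. The called gene was *Rps19*, with 598, 683 and 502 CPM at P4 and 335, 377 and 350 CPM at P8 (log2 change -0.75 ± 0.15, SE; adjusted p = 0.0258), and its call was lost without any library but P4 replicate 3, at up to 0.128. Ribosomal protein genes have many processed pseudogenes, and reads that aligned to more than one place were not counted. Of 26 tested cell cycle genes, *Hmgb2*, a chromatin protein of dividing cells, was called lower, from 103 ± 12.4 to 35.9 ± 7.73 CPM (adjusted p = 0.0196, lost without P4 replicate 3 or any P8 library at up to 0.125), and the median log2 change was -1.18. *Mki67* had 59.1, 34.6 and 77.9 CPM at P4 and 23.0, 15.1 and 19.8 CPM at P8 (adjusted p = 0.27). Its groups did not overlap, as in 17.7% of all tested genes. PCs are postmitotic at these ages, and the source of the cell cycle transcripts was not tested.

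Of 16 tested markers of Bergmann glia and astrocytes, 3 were called higher and none lower, 10 had an unadjusted p under 0.05 with higher values at P8, and the median log2 change was 1.03. *Sept4*, a septin of Bergmann glia, had 128, 81.2 and 74.8 CPM at P4 and 301, 235 and 324 CPM at P8 (log2 change 1.60 ± 0.28, SE; adjusted p = 0.0071). *Slc1a2*, the glutamate transporter GLT-1, had 164, 118 and 102 CPM at P4 and 368, 269 and 342 CPM at P8 (adjusted p = 0.0074), and the bicarbonate transporter *Slc4a4* had 141 ± 60.5 and 396 ± 109 CPM (adjusted p = 0.0306). The members with the highest levels did not pass the test: *Fabp7*, a fatty acid binding protein of radial and Bergmann glia, had 4496 ± 1116 and 4606 ± 291 CPM (adjusted p = 0.992), and *Slc1a3*, the transporter GLAST, had 1895 ± 602 and 2359 ± 267 CPM (adjusted p = 0.632). *Gfap* had 31.1, 109 and 8.94 CPM at P4 and 250, 297 and 286 CPM at P8 (adjusted p = 0.23), and *Aqp4* had 373 ± 224 and 976 ± 254 CPM (adjusted p = 0.122). The call of *Slc4a4* was lost without P4 replicate 2 or 3 or P8 replicate 1 or 3, at up to 0.133, and those of *Sept4* and *Slc1a2* held.

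Further lists of other cells gave single calls or none. *Cbln3*, a cerebellin of granule cells, had no count at P4 and 2.20, 4.33 and 9.28 CPM at P8, or at least 31.9-fold more (adjusted p = 0.0044, but 0.146 with limma-voom and 0.132 in the 6-library fit), while the granule cell factor *Neurod1* had 314 ± 83.9 and 543 ± 121 CPM (adjusted p = 0.393). *Hbb-bs*, a β-globin, had 82.4, 89.6 and 107 CPM at P4 and 168, 289 and 258 CPM at P8 (adjusted p = 0.0333), lost without any library but P8 replicate 1 at up to 0.141. The median log2 change was 0.38 over the 14 tested granule cell genes and 1.36 over the 5 red blood cell genes. The myelin gene *Cnp* had a mean of 61.2 CPM at P4 and 217 CPM at P8 (adjusted p = 0.102). No gene of the 14 tested in the oligodendrocyte list was called by edgeR (5 higher and 1 lower at an unadjusted p under 0.05, 3 called higher by DESeq2 and 1 by limma-voom), and their median log2 change was 0.59. The median log2 change of the 9 tested microglia markers was 2.34 at levels of a few CPM, with none called by edgeR, DESeq2 or limma-voom and 2 higher at an unadjusted p under 0.05.

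Among smaller lists, *Hapln4*, a link protein of the perineuronal net, was the one called of 15 tested matrix genes, whose median log2 change was 0.49. It had 2.70, 15.1 and 6.53 CPM at P4 and 51.1, 114 and 57.1 CPM at P8 (log2 change 3.14 ± 0.62, SE; adjusted p = 0.0196, lost without P4 replicate 1 or 3 or P8 replicate 2 at up to 0.0858). *Abcg1*, a sterol exporter, was the one called of 23 tested lipid genes (median 0.21), from 61.2 to 169 CPM in the mean (adjusted p = 0.0194, lost without P4 replicate 1 or 3 or P8 replicate 2 or 3 at up to 0.10). *Cdkn1c* was the one called of 25 tested imprinted genes (median -0.39) and *Klf9* of 13 tested thyroid hormone response genes (median -0.24).

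In the lists that follow edgeR called no gene, and the counts in brackets are those at an unadjusted p under 0.05. Of all tested genes 11.8% had such a p in either direction. Among lists of the nucleus and of RNA, the median log2 change was -0.14 for 31 hnRNP and SR splicing factors (1 lower), 0.39 for 23 neuronal splicing regulators (4 higher, 2 lower) and -0.05 for 23 genes of DNA methylation and chromatin (1 higher, 4 lower). Immediate early genes (13 tested, none in brackets) had a median of 0.02, and 15 chaperone and stress genes (none) had -0.07. For protein turnover, lipids and survival it was -0.02 for 31 proteasome genes (2 higher, 1 lower), -0.07 for 24 genes of cholesterol synthesis (2 higher, 1 lower) and -0.06 for 19 genes of apoptosis (2 lower). It was 0.31 for 13 genes of GABA synthesis, transport and chloride (4 higher) and 0.87 for 23 secreted factors and their receptors (4 higher, 2 lower). Vascular cells, with 10 tested genes (none), had 0.53, and cerebellar interneurons and nuclear neurons, with 8 (2 higher, 1 lower), had 0.28. DESeq2 called 3 genes of GABA synthesis higher, 2 neuronal splicing regulators each way, 2 secreted factors and 1 chromatin gene lower, and 1 proteasome and 1 interneuron gene higher. limma-voom called 2 genes of GABA synthesis, 2 secreted factors, 1 proteasome and 1 interneuron gene higher and 1 secreted factor lower. The remaining lists of this kind held no call by either tool.

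**Figure D4:**
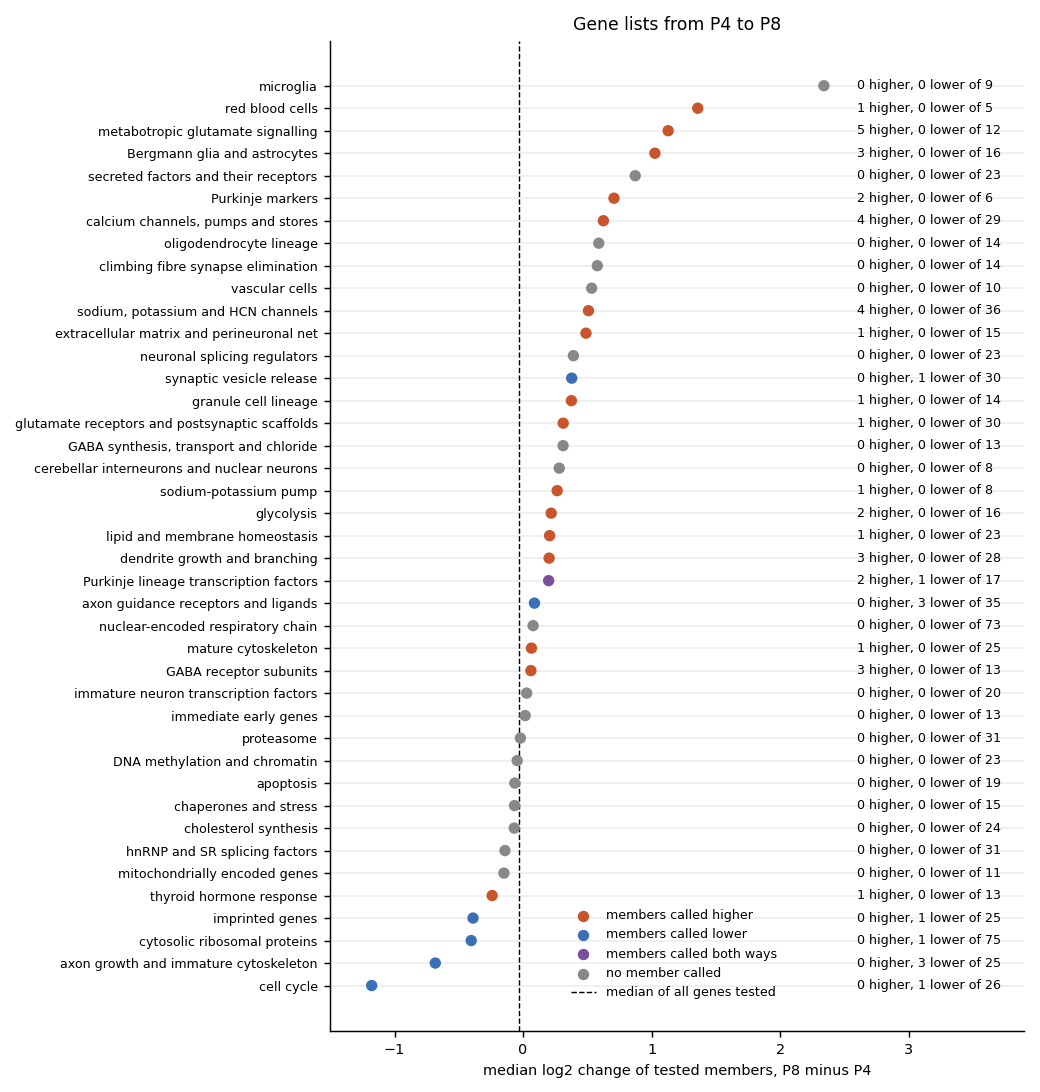
Median log2 change from P4 to P8 of the tested members of each gene list (horizontal axis), with the numbers called higher and lower written at the right, and the median of all tested genes as a dashed line at -0.03. The lists of red blood cells (1.36), metabotropic glutamate signalling (1.13), glia (1.03), Purkinje markers (0.71) and calcium handling (0.62) lie farthest to the right among those with called members, and those of axon growth (-0.68) and the cell cycle (-1.18) to the left.

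Non-coding genes were few among the called. *Gm13944*, annotated as antisense and lying inside the *Zfp385b* locus on chromosome 2, had 1 count over the P4 libraries and 711 over the P8 libraries, a ratio of 792 with a counting interval from 142 to 31307. It had 45.7, 19.4 and 67.6 CPM at P8 and stayed called without any one library (adjusted p = 3.3e-05). *Gm12992*, a processed transcript whose exons overlap those of *Srsf4*, had 1 count at P4 and 205 at P8 (adjusted p = 0.0226), and its call was lost without any library but P8 replicate 2, at up to 0.077. *Gm11223*, a processed pseudogene, had 208 ± 30.1 and 99.2 ± 2.73 CPM (adjusted p = 0.0407) whose call was lost without any one library (up to 0.17), and is uncertain because its reads could come from its parent gene. The library kit as described does not mark strand, so reads of *Gm13944* and *Gm12992* cannot be told from those of the genes they overlap.

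The P4 to P8 step can be set beside the other steps. The step from P14 to P21, which shares no library with it and spans 7 days against 4, held 46 called genes (0.322% of those tested), 9 higher (0.063%) and 37 lower (0.259%). A direct test of the difference between both steps called 49 genes (0.343%), 41 with the larger value at the early step (0.287%) and 8 with the smaller (0.056%). The value is signed, so a gene that fell more at the late step, such as *Dcx* (-0.81 and -5.43), counts as larger. Of the 41 genes, 29 were among those called higher from P4 to P8. *Pvalb* changed by 3.78 on the log2 scale at the early step and by 0.25 at the late one, a difference of 3.53 (edgeR adjusted p = 0.0102). For *Rgs8* the values were 3.02 and 0.66, a difference of 2.37 (adjusted p = 0.0263). Both were larger at the early step, and *Foxp2* differed in the other direction, with -1.73 and 0.36, a difference of -2.09 (adjusted p = 0.0064).

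The neighbouring steps share libraries with this one. P0 to P4 held 265 called genes over 4 days (1.85%), 230 higher (1.61%) and 35 lower (0.245%). P0 cells were captured as clusters, so age and capture cannot be told apart at that step. P8 to P14 held 386 called genes over 6 days (2.70%), 190 higher (1.33%) and 196 lower (1.37%). Between P4 to P8 and P8 to P14 the change differed in 9 genes (0.063%), 7 with the larger signed value at the earlier step (0.049%) and 2 with the smaller (0.014%). Of the 7 genes, 3 were among those called higher from P4 to P8.

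The levels of some called genes over the whole series show where the step lies, with the P0 values coming from cells captured as clusters. *Pvalb* went from a mean of 95.4 ± 61.6 CPM (SD, n = 3) to 1311 ± 98.9 over this step, after 8.72 at birth, and reached 3448 ± 146 at P14 and 4099 ± 1005 in the oldest animals. *Rora* had 671 ± 21.7, 805 ± 55.8, 1523 ± 23.0 and 1996 ± 252 CPM over the first 4 time points. All 3 P8 libraries lay between the P4 and P14 libraries in both genes. Over the same 4 time points *Foxp2* ran from 760 ± 68.6 CPM to 507 ± 103, 153 ± 9.69 and 88.8 ± 16.3, and *Stmn1* from 997 ± 96.4 to 634 ± 137, 301 ± 27.9 and 99.2 CPM. *Epha4* was lowest at P8 (42.9 ± 17.4 CPM), with 151 ± 57.0 at P0, 85.4 ± 19.6 at P14 and 74.3 ± 30.7 at P21, and the test of its P8 to P14 change gave adjusted p = 0.283.

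**Figure D5:**
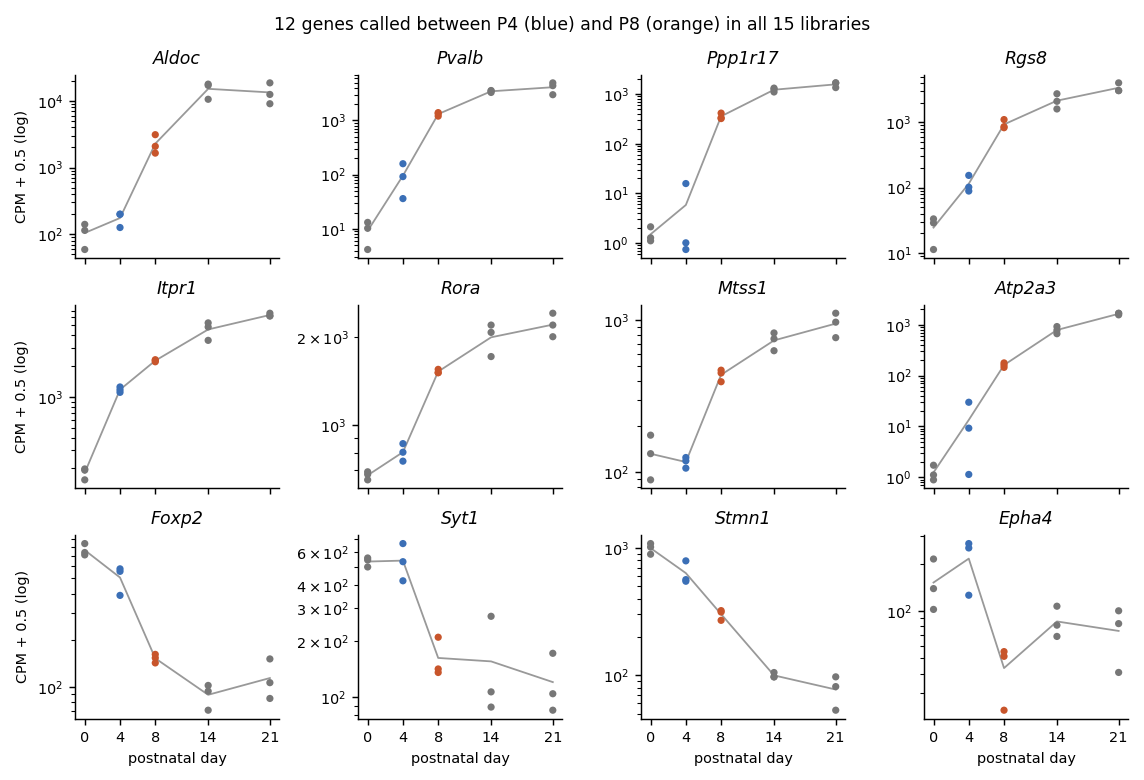
CPM plus 0.5 (vertical axes, log scale) of 12 genes called between P4 and P8 in all 15 libraries by postnatal day (horizontal axes), each point a library, the line joining the means of 3, P4 in blue and P8 in orange. *Pvalb* went from 95.4 CPM at P4 to 1311 at P8 and 3448 at P14, and *Epha4* was lowest at P8, at 42.9 CPM.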

How the data were processed

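Purkinje cells were laser-captured at 5 postnatal ages, 3 libraries each, as clusters at P0 and as single soma at the later ages. The authors trimmed reads (cutadapt 1.2.1), aligned them to GRCm38/mm10 (GSNAP), kept unique alignments and counted reads per Ensembl gene (HTSeq 0.5.3p9), and deposited these raw counts. The annotation release is not given in the sources used here. HTSeq's tally rows were dropped, and the no-feature share was 20.1% to 23.4% in the P4 and P8 libraries. Symbols came from GENCODE M21 (36639 of 38561 IDs).

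All 15 libraries were fitted together with time point as the factor, by edgeR 4.0.16's quasi-likelihood test (TMM, filterByExpr, Benjamini-Hochberg over 14293 genes, threshold 0.05) in R 4.3.3. The common biological coefficient of variation was 0.705 with 10 residual degrees of freedom. Every adjusted p is from this test unless another tool is named. The SE of a log2 change is its absolute size divided by the square root of the test's F statistic. It thus draws on the spread of all 15 libraries. CPM and RPKM were computed from the counts. A floor of 3 counts was 0.384 to 0.788 CPM per library, and 95% counting intervals cover counting error only. Marker sums were compared by an exact permutation test (scipy 1.17.1). The fitting was tested on simulated data.

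Alternatives were DESeq2 1.42.0, limma-voom (limma 3.58.1), other scalings, filters and sample sets, a replicate block and leaving out each library. Leaving out the P14 libraries or P0 replicate 1 was chosen after seeing the data. Named genes were the 12 protein-coding and 2 non-coding genes with the largest called change each way (mean of at least 10 CPM in the higher group, no overlap), up to 4 called and 2 highest uncalled members of each list, the cell type markers, and up to 4 genes per difference of steps. Members and lists were chosen with earlier results of these data known. Some genes are not reported here.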

Additional observations from a re-analysis of the deposited data

Results flagged for a closer look

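Some genes changed differently from P4 to P8 than at another step, where the difference itself was tested with edgeR's quasi-likelihood method and adjusted by Benjamini-Hochberg. Against P14 to P21, the log2 difference was 4.62 for *Dcx* (SE 0.435, adjusted p = 1.9e-04), a microtubule protein of migrating neurons. Its levels were 361, 521 and 488 CPM at P4, 268, 199 and 315 at P8, 33.8, 23.4 and 27.5 at P14 and 0.333, 0.419 and 0.958 at P21, so the late step was the steeper fall. The difference was 3.88 for *Aldoc*, 9.29 for *Gm13944* and 7.02 for *Muc3a*, each with the larger change from P4 to P8.

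Against P8 to P14, which shares the P8 libraries, the log2 difference was 6.96 for *Muc3a*, 6.87 for *Gm13944*, 10.07 for *Cenpf* and -3.32 for *Mt1*. *Cenpf*, a kinetochore protein of dividing cells, had 25.7, 31.0 and 33.7 CPM at P4, 14.8, 29.2 and 39.4 at P8 and no count in any P14 library. *Mt1*, a metallothionein, had 86.1 to 101 CPM at P4, 63.2 to 78.7 at P8 and 407 to 672 at P14. The large differences of *Muc3a*, *Gm13944* and *Cenpf* rest on groups at or near 0 counts, and their size depends on the prior count of the fit.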

How the results depend on the processing

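The direction of every called gene held in all fits. Genes called higher at P8 (123) numbered 323 with DESeq2, 199 with limma-voom, 70 with the P4 and P8 libraries alone and 258 with P4 to P21 libraries, and 65 to 152 when 1 library was left out. Genes called lower (37) numbered 173, 111, 29 and 50 in those 4 fits, 21 without the P14 libraries, and 9 to 42 when 1 library was left out. Genes whose change differed from P14 to P21 (49) numbered 187 with DESeq2, 85 with limma-voom, 107 with P4 to P21 libraries and 29 to 64 without 1 library. Those that differed from P8 to P14 (9) numbered 86, 23 and 14, 16 with no filter, and 3 to 15 without 1 library. In these ranges the highest counts for the first 3 came without P0 replicate 1. Where 1 library of a time point was left out, 2 remained and shared the spread of the other groups. The cause of these shifts was not tested.

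The summed CPM of the list vascular cells, P8 minus P4, ran from -13.5 without P8 replicate 3 to 84.8, so its sign changed with 1 library. The summed CPM of the list cerebellar interneurons and nuclear neurons, P8 minus P4, ran from -14.3 without P4 replicate 1 to 23.9, with the same outcome. With the replicate number as a replicate block, 99 genes were called higher, 25 lower, and 40 and 7 in the differences between steps. Deviations of same-numbered P4 and P8 libraries had a mean correlation of -0.01, beside 0.01 for other numbers, so no pairing was seen. The deviations were taken from group means, which ties these values to opposite signs, and pairing is not excluded. Depth limits genes near the floor of 3 counts, where a change may not be detectable.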
